A study of Mus musculus with 10 samples.

Results

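Chaperones and co-chaperones of the cytosol were followed in 10 livers of wild-type (WT) mice with diet-induced steatohepatitis, in which the liver stores fat, becomes inflamed and scars. The genes were taken by name: the DnaJ A, B and C, HSP70 and small HSP symbols, Bag1 to Bag6, the TRiC subunits, both cytosolic HSP90 genes, Hsph1, the mitochondrial chaperonin pair Hspd1 and Hspe1, Stip1, Hsf1 and Hsf2, without 7 genes of the endoplasmic reticulum (ER) lumen or with J domains there. The rule used no measured value and gave 79 of the 17274 genes in the table, but it was chosen with earlier results of these data known. All mice ate CDAHFD, a high-fat diet that lacks choline and supplies amino acids in defined form, and all were given an AAV (adeno-associated virus, used to deliver genes) intravenously. In 5 livers the vector encoded the microRNA miR-181d-5p, and in 5 it was a control AAV. Diet and vector injection were thus common to both groups, and a liver on normal food or without a vector is not part of the comparison. The promoter of the vector, its dose, the age of the mice and the time of harvest are not given in the sources used here. Sample labels carry numbers but do not say that each liver came from a separate mouse, so the spread behind every p-value is that of these samples and may be technical.

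Chaperones keep proteins from clumping while they fold, refold or are sent for degradation. HSP70 proteins bind and release short stretches of unfolded chain, J-domain (DnaJ) proteins bring them clients and start ATP hydrolysis, and HSP110 and BAG proteins help them exchange nucleotide. HSP90 takes over clients at a late stage through the adaptor Stip1, small HSPs hold unfolded proteins, and the TRiC ring folds actin, tubulin and others. Part of the network is always on. Another part is switched on by the transcription factor Hsf1, which binds heat shock elements, repeats of nGAAn, when unfolded protein accumulates. From textbook knowledge, but with earlier results of these data known, 13 members were put on a heat-inducible list: Hspa1a, Hspa1b, Dnajb1, Hsph1, Hsp90aa1, Hspb1, Bag3, Dnajb4, Dnaja1, Dnaja4, Stip1, Hspd1 and Hspe1. The other 66 include the constitutive members. The name cytosolic does not hold for all 79: 8 act in mitochondria, Hspd1 and Hspe1 among them, and 5 DnaJ proteins sit in the ER membrane.

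The microRNA of the vector is shown because its seed (bases 2 to 8, in capitals) sets which 3' UTRs were searched further on; the sequence is from RefSeq (GRCm38.p6, chr8:84178759-84178781, minus strand).
miR-181d-5p: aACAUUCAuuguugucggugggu
miR-181a-5p, miR-181b-5p and miR-181c-5p carry the same seed. The table lists no miR-181 gene, and the microRNA itself was not measured here.

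The read totals behind the FPKM, worked out from the values and lying almost wholly in the listed genes, were 18985912 to 20657019 in miR-181d-5p livers. In control livers they were 19118235 to 20337358. The number of reads sequenced is not known from them. Of the 79 members 69 had a mean of at least 0.5 FPKM (fragments scaled by gene length and library size) over the 10 livers and were tested among 12053 genes. No gene of the 12053 passed limma's test at an adjusted p under 0.05 (0%), and so 0 members did. At an unadjusted p under 0.05 (limma's, here and below), 12 members were lower in miR-181d-5p livers (17.4% of 69, against 9.63% of all genes tested) and 2 were higher (2.9%, against 5.04%). As the members were chosen with earlier results known, these shares describe them and are not independent support. Limma voom on recovered reads gave the same counts, 0 members past the adjusted threshold, 12 lower and 2 higher. No member had groups that did not overlap in either direction (0 of 69), against 1.45% of all genes lower and 1.02% higher. The split of all calls depended on scaling: 34.3% of genes at an unadjusted p under 0.05 were higher, but 21.5% when FPKM were scaled to 1 common sum and 51.4% after quantile normalization. Over these scalings 12 to 13 members were lower and 1 to 3 were higher. Control liver 5 stood apart in its immediate early genes, which summed to 1425 FPKM there and to 304 to 479 FPKM in the other 9 livers. Among markers of liver cell types, those of bile duct, stellate and smooth muscle cells were below 0 in the log2 change of each gene tested, and the other lists were mixed. Bile duct markers summed to 109.9 to 363 FPKM in miR-181d-5p livers and 266 to 498 FPKM in control livers, with 4 of 5 lower at an unadjusted p under 0.05. Stellate cell markers summed to 239.9 to 289 FPKM in miR-181d-5p livers and 287 to 417 FPKM in control livers, with 4 of 6 lower. Smooth muscle markers summed to 34.6 to 50.5 FPKM in miR-181d-5p livers and 48.2 to 102.7 FPKM in control livers, with 3 of the 6 tested lower. For macrophage markers the sums were 964 to 2034 FPKM in miR-181d-5p livers and 1479 to 2149 FPKM in control livers (2 of 5 lower). For endothelial markers they were 101.2 to 106.8 FPKM in miR-181d-5p livers and 98.9 to 117 FPKM in control livers (2 of 5 lower), and for hepatocyte markers 33809 to 38599 FPKM in miR-181d-5p livers and 32358 to 38990 FPKM in control livers (0 of 9 lower, 1 higher). No marker was at 0 in any liver, and the part of these cells in the results below was not tested. In liver tissue, fewer cells of a type and less RNA per cell cannot be told apart.

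The stress-inducible HSP70 genes Hspa1b and Hspa1a had the lowest log2 changes of all 12053 genes, and most of the heat-inducible list lay below the control level with them. Hspa1b stood at 6.78, 9.75, 5.47, 8.65 and 25.6 FPKM in miR-181d-5p livers 1 to 5, against 19.9, 24.9, 64.5, 31.4 and 73.9 FPKM in control livers 1 to 5. Livers 1 to 4 of the miR-181d-5p group lay below every control liver, and liver 5 reached the range of the lower controls. The means were 11.3 ± 8.20 FPKM in miR-181d-5p livers and 42.9 ± 24.6 FPKM in control livers (mean ± SD here and below, n = 5 each), 26.2% of the control mean, resting on 3123 reads in miR-181d-5p livers and 11844 in control livers. On the log2(FPKM + 1) scale, used for all changes, limma gave -1.85 (SE 0.41) with an adjusted p of 0.221. Hspa1a stood at 1.87, 2.51, 1.83, 1.91 and 5.33 FPKM in miR-181d-5p livers 1 to 5, against 4.84, 4.99, 14.2, 9.24 and 48.6 FPKM in control livers 1 to 5. Control liver 5 was far above the other controls, and the means were apart by less than the control SD (2.69 ± 1.5 FPKM in miR-181d-5p livers against 16.4 ± 18.4 in control livers, SD, n = 5 each), and miR-181d-5p liver 5 again overlapped the lowest controls. The log2 change was -1.80 (SE 0.49, adjusted p = 0.222), and -1.17 with a pseudocount of 5 or -2.15 by voom. Without control liver 5 it was -1.30. Over 24 settings of the analysis Hspa1a had rank 1 to 4 from the lowest change, and Hspa1b rank 1 to 3 in the 23 that keep it as a gene of its own. Both genes are near-identical copies, so the counting may have split or lost their reads. Hspa8, Hspd1 and Hspe1 have processed pseudogenes, which could likewise take some of their reads. Summed, Hspa1a and Hspa1b stood at 13.9 ± 9.69 FPKM in miR-181d-5p livers and 59.3 ± 41.2 FPKM in control livers, with ranges of 7.299 to 30.9 FPKM in miR-181d-5p livers and 24.7 to 122.6 FPKM in control livers. Two-sided exact permutation tests of single genes gave p = 0.0238 for Hspa1b, 0.0238 for Hspa1a and 0.0238 for Dnajb1, not adjusted for the number of genes, where 10 livers allow 0.00794 at the least. That value was not particular to them. The TRiC subunit Cct3 (0.0238, higher), Hspd1 (0.0397, higher) and Dnaja4 (0.0317, lower) were under 0.05 by this test but not by limma. Hspb1 (0.0873), Hspa4l (0.0714) and Dnajc28 (0.0556) were under 0.05 by limma but not by this test.

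**Figure D1:**
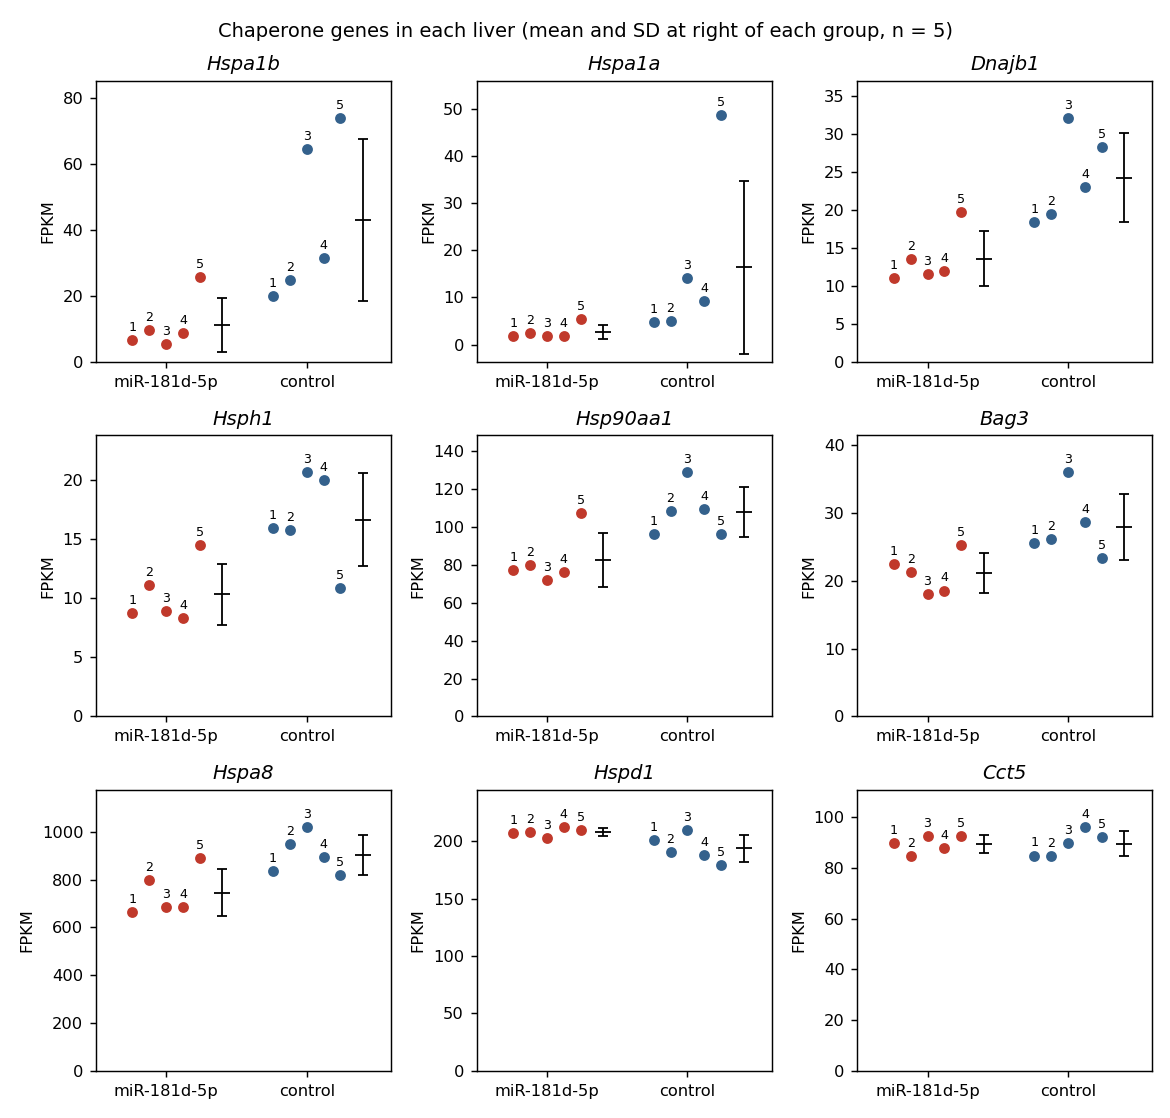
FPKM of 9 chaperone genes in each liver (points, numbered by liver), miR-181d-5p vector on the left and control vector on the right, with the mean and SD of each group (n = 5). Hspa1b, Hspa1a, Dnajb1 and Hsph1 were lower in miR-181d-5p livers 1 to 4 than in most controls, with liver 5 inside the control range, while Cct5 averaged 89.5 FPKM in both.

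Hspa8, the constitutive HSP70 of the cytosol, was the most abundant member, and its difference was far smaller. It stood at 663, 799, 685, 685 and 891 FPKM in miR-181d-5p livers 1 to 5, against 834, 947, 1021, 895 and 820.2 FPKM in control livers 1 to 5. Livers 1 to 4 of the miR-181d-5p group lay below every control liver and liver 5 among the controls. The mean was 82.4% of the control mean, a log2 change of -0.28 (SE 0.10, adjusted p = 0.259). The inducible pair made up 1.75% ± 0.921 of the FPKM of Hspa1a, Hspa1b and Hspa8 together in miR-181d-5p livers and 6.09% ± 4.22 in control livers (SD, n = 5 each). The share ran from 1.05% to 3.36% in miR-181d-5p livers and from 2.88% to 13% in control livers, so the groups overlapped. Hspa9, the HSP70 of mitochondria, leaned the other way at 259 ± 15.0 FPKM in miR-181d-5p livers against 227 ± 33.0 in control livers (log2 change 0.20, SE 0.09, adjusted p = 0.345). Hspa2, Hspa14 and Hspa12b, the remaining HSP70 genes tested, had log2 changes of -0.20, -0.04 and 0.10, each at an unadjusted p above 0.05.

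The promoters of the inducible pair are shown because they carry the same heat shock element match (capitals) and are nearly the same sequence. They run from 250 bases before to 50 bases after the annotated start, 5' to 3' on the strand of the gene, from RefSeq on GRCm38.p6. The Hspa1a window is chr17:34972107-34972406, minus strand, and the Hspa1b window is chr17:34959189-34959488, minus strand.
Hspa1a: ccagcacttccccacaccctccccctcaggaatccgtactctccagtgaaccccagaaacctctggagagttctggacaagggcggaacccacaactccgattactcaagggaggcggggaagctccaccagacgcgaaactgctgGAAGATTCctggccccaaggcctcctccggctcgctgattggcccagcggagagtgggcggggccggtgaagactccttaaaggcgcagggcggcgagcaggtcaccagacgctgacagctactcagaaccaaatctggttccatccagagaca
Hspa1b: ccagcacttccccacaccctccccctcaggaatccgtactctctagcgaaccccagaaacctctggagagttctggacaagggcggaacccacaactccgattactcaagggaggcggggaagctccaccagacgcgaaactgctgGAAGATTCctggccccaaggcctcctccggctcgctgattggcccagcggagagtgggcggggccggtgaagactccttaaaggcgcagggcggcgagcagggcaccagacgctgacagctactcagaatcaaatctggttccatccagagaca
The windows agree at 296 of 300 bases (98.7%), and in both the match begins 104 bases before the start. The genes themselves span chr17:34969190-34972156 (Hspa1a) and chr17:34956436-34959238 (Hspa1b) on the minus strand of GRCm38.

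The HSP110 genes, whose products exchange nucleotide on HSP70, followed the inducible pair in part. Hsph1, the heat-inducible one (chr5:149614287-149636376, minus strand), stood at 8.75, 11.1, 8.87, 8.33 and 14.5 FPKM in miR-181d-5p livers 1 to 5, against 15.9, 15.7, 20.6, 20 and 10.8 FPKM in control livers 1 to 5. Control liver 5 was the lowest of its group here, the reverse of its place in Hspa1a and Hspa1b. The log2 change was -0.63 (SE 0.17, adjusted p = 0.222), with means of 10.3 ± 2.57 FPKM in miR-181d-5p livers and 16.6 ± 3.94 FPKM in control livers (SD, n = 5 each). Hspa4l stood at 7.01 ± 0.419 FPKM in miR-181d-5p livers against 8.45 ± 1.32 in control livers (log2 change -0.23, adjusted p = 0.334). Hspa4, the constitutive member, stood at 43.3 ± 0.962 FPKM in miR-181d-5p livers against 42.8 ± 4.76 in control livers; its log2 change of 0.02 turned below 0 after quantile normalization or with a common FPKM sum. In a setting chosen after seeing the data, control liver 5 and miR-181d-5p liver 5 were both left out. Hsph1 and Hspa1b then passed at adjusted p = 0.0232 and 0.0493, the 2 members among 15 genes that did. For both genes this setting removes the highest liver of the miR-181d-5p group. For Hsph1 it also removes the lowest control, so both livers that narrowed the difference were dropped, and the log2 change was -0.89. For Hspa1b it removes the highest control instead. In the other alternatives, leaving out either of these livers alone among them, neither gene passed, with ranges up to 0.502 for both.

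Among the J-domain partners of HSP70, 2 of the 4 on the heat-inducible list, Dnajb1 and Dnajb4, were lower at an unadjusted limma p under 0.05. Dnaja1 and Dnaja4 were not. Dnajb1, the main inducible J-domain protein of the cytosol (chr8:83608193-83612653, plus strand), stood at 11, 13.6, 11.5, 12 and 19.8 FPKM in miR-181d-5p livers 1 to 5, against 18.4, 19.5, 32.2, 23.0 and 28.3 FPKM in control livers 1 to 5. Here too miR-181d-5p liver 5 alone of its group entered the control range. The mean was 55.9% of the control mean, a log2 change of -0.79 (SE 0.17, adjusted p = 0.221). Dnajb4, a close relative, stood at 6.41, 7.62, 6.83, 7.30 and 9.13 FPKM in miR-181d-5p livers 1 to 5, against 7.81, 9.64, 12.1, 8.33 and 9.92 FPKM in control livers 1 to 5 (log2 change -0.31, SE 0.11, adjusted p = 0.269). Dnaja1, a farnesylated partner of Hspa8, stood at 66.1 ± 9.58 FPKM in miR-181d-5p livers against 81.3 ± 18.9 in control livers (log2 change -0.28, adjusted p = 0.365), and Dnaja4 at 2.27 ± 0.182 FPKM in miR-181d-5p livers against 2.56 ± 0.129 in control livers (-0.12, adjusted p = 0.408). Their constitutive relative Dnaja2 had a log2 change of 0.02, below 0 with a common FPKM sum and after quantile normalization. Of the other 6 DnaJ B genes tested 0 had an unadjusted p under 0.05, with log2 changes from -0.16 (Dnajb14) to 0.11 (Dnajb2). Dnajb12, an ER membrane protein and the most abundant gene of that class, stood at 22.8 ± 0.855 FPKM in miR-181d-5p livers against 21.9 ± 2.42 in control livers (0.06).

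DnaJ C genes, a mixed class whose J domains serve HSP70 in many compartments, did not stand out: 1 of 21 tested was higher at an unadjusted p under 0.05 (4.76%, against 5.04% of all genes tested) and 0 were lower. Dnajc28 stood at 2.17, 2.61, 2.50, 2.07 and 2.28 FPKM in miR-181d-5p livers 1 to 5, against 1.91, 1.42, 2.21, 2.2 and 1.35 FPKM in control livers 1 to 5. The groups overlapped, with a log2 change of 0.25 (SE 0.10, adjusted p = 0.311). Dnajc22, the most abundant of the class, stood at 50.6 ± 1.92 FPKM in miR-181d-5p livers against 45.6 ± 5.05 in control livers (0.15, adjusted p = 0.368). The class ran from -0.17 (Dnajc13) to 0.25, with a median of 0.05.

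HSP90 genes and the adaptor that joins HSP70 to HSP90 were lower by smaller amounts. Hsp90aa1, the inducible HSP90, stood at 77.3, 79.6, 71.8, 75.9 and 107 FPKM in miR-181d-5p livers 1 to 5, against 96.1, 108, 129, 109.5 and 96.0 FPKM in control livers 1 to 5. Livers 1 to 4 of the miR-181d-5p group lay below every control and liver 5 among the controls. The log2 change was -0.39 (SE 0.11, adjusted p = 0.238). Hsp90ab1, the constitutive HSP90, stood at 520.1, 519.6, 529, 548 and 607 FPKM in miR-181d-5p livers 1 to 5, against 608, 595, 643, 634 and 574 FPKM in control livers 1 to 5, a log2 change of -0.17 (SE 0.07, adjusted p = 0.312). Hsp90aa1 was 13.1% ± 1.23 of the FPKM of both genes in miR-181d-5p livers and 15.0% ± 1.16 in control livers (SD, n = 5 each). Stip1 stood at 40, 42.8, 37.3, 39.2 and 44.2 FPKM in miR-181d-5p livers 1 to 5, against 43.7, 49.5, 49.0, 46.8 and 44.1 FPKM in control livers 1 to 5 (-0.19, SE 0.07, adjusted p = 0.257).

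Among the BAG co-chaperones only Bag3, the inducible one, which links HSP70 clients to autophagy, had an unadjusted p under 0.05. It stood at 22.4, 21.4, 18.1, 18.6 and 25.3 FPKM in miR-181d-5p livers 1 to 5, against 25.6, 26.1, 36.1, 28.6 and 23.4 FPKM in control livers 1 to 5. Liver 5 of the miR-181d-5p group was above the lowest control, liver 5. The log2 change was -0.38 (SE 0.12, adjusted p = 0.24). The other 5 BAG genes ran from -0.13 (Bag2) to 0.03 (Bag1). Bag1, the most abundant, stood at 82.0 ± 3.19 FPKM in miR-181d-5p livers against 80.4 ± 9.45 in control livers, and the sign of its change turned after quantile normalization.

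Small HSPs differed among themselves. Hspb1, the inducible holdase also known as Hsp25, stood at 44.2, 48.2, 41.9, 40.9 and 59.1 FPKM in miR-181d-5p livers 1 to 5, against 47.4, 43.2, 82.5, 71.0 and 72.0 FPKM in control livers 1 to 5. Control livers 1 and 2 lay within the miR-181d-5p range and control livers 3 to 5 above it, with a log2 change of -0.39 (SE 0.17, adjusted p = 0.320). Hspb8, the partner of Bag3 and the most abundant small HSP here, stood at 105 ± 6.91 FPKM in miR-181d-5p livers against 118 ± 21.1 in control livers (-0.15, adjusted p = 0.551). Hspb6, a small HSP best known from muscle, was higher at 4.44, 4.62, 5.22, 5.39 and 4.91 FPKM in miR-181d-5p livers 1 to 5, against 4.24, 3.58, 4.56, 3.96 and 3.79 FPKM in control livers 1 to 5. The groups overlapped between 4.44 and 4.56 FPKM. Its log2 change was 0.24 (SE 0.08, adjusted p = 0.250), while the smooth muscle markers given above were lower. Hspb11 and Hspb2, both low, had log2 changes of -0.11 and -0.04, the change of Hspb2 turning above 0 after quantile normalization.

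The chaperonins stayed near the control level. The 8 tested TRiC subunits, which form 1 ring complex, had log2 changes from -0.02 to 0.06. None had an unadjusted limma p under 0.05 (adjusted p from 0.581 to 0.999). The exact permutation test gave p = 0.0238 for Cct3, at 78.7 ± 1.52 FPKM in miR-181d-5p livers against 75.3 ± 1.84 in control livers. Their summed level was 604 ± 12.1 FPKM in miR-181d-5p livers and 601 ± 18.7 FPKM in control livers (SD, n = 5 each). Cct5, the most abundant subunit, stood at 89.9, 84.6, 92.6, 87.7 and 92.5 FPKM in miR-181d-5p livers 1 to 5, against 84.9, 84.5, 89.7, 96.3 and 92.3 FPKM in control livers 1 to 5. With changes this close to 0, scaling set their sign: 5 of 8 were below 0 in the main fit, 6 with a common sum and 7 after quantile normalization. Hspd1 and Hspe1, which form the folding chamber of mitochondria and are on the heat-inducible list, were the 2 of its 13 genes above 0. Hspd1 stood at 207, 208, 203, 213 and 209.8 FPKM in miR-181d-5p livers 1 to 5, against 201, 191, 209.7, 188 and 179 FPKM in control livers 1 to 5 (0.10, SE 0.06, adjusted p = 0.435). Hspe1 stood at 203 ± 5.50 FPKM in miR-181d-5p livers against 193 ± 29.6 in control livers (0.09, adjusted p = 0.685). All 8 mitochondrial members, among them Hspa9, Dnaja3 and Dnajc19, lay above 0 under each of the scalings, from 0.09 to 0.20 in the main fit. The 5 ER membrane members had a median of 0.01. In both lists 0 genes had an unadjusted limma p under 0.05, while the exact permutation test gave p = 0.0397 for Hspd1.

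The mRNA of the heat shock factors, the regulators of the inducible part, lay near the control level. Hsf1, the main activator, stood at 6.82, 6.98, 7.10, 6.53 and 6.80 FPKM in miR-181d-5p livers 1 to 5, against 6.20, 5.52, 7.41, 7.54 and 6.02 FPKM in control livers 1 to 5 (0.07, SE 0.08, adjusted p = 0.735). Hsf2 stood at 2.76 ± 0.225 FPKM in miR-181d-5p livers against 2.51 ± 0.212 in control livers (0.10, adjusted p = 0.540). Hsf1 is switched on by trimer formation and phosphorylation, which mRNA levels do not show.

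Set side by side, 11 of 13 heat-inducible members were below 0 with a median of -0.38. At an unadjusted p under 0.05, 9 (69.2%) were lower and 0 higher, against 9.63% and 5.04% of all genes tested. The list was drawn up with earlier results of these data known, so these shares describe it and are not independent support. Of the other 56 tested members, 27 were below 0 and 29 above with a median of 0.01, and 3 (5.36%) were lower and 2 (3.57%) higher. Over all 12053 genes the median was -0.02, with 6574 below 0. The 3 lower ones outside the list were Hspa8, Hsp90ab1 and Hspa4l, each a close relative of a gene on it, and the 2 higher ones Hspb6 and Dnajc28. In a narrower list of 6 strongly induced genes (Hspa1a, Hspa1b, Dnajb1, Hsph1, Hspb1 and Bag3) the median was -0.71. By the same limma test 6 of 6 were lower, while the exact permutation test gave p = 0.0873 for Hspb1. This list too was drawn up with earlier results known and leaves out the heat-inducible members without a call, so it is no independent support. The count of heat-inducible members below 0 was 11 of 13 in all 22 alternatives that keep both HSP70 copies, and 10 of 12 with Hspa1a and Hspa1b summed. The summed FPKM of all members, in which Hspa8 and Hsp90ab1 are the largest terms, was 3644 ± 163 in miR-181d-5p livers and 3940 ± 203 in control livers (SD, n = 5 each).

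**Figure D2:**
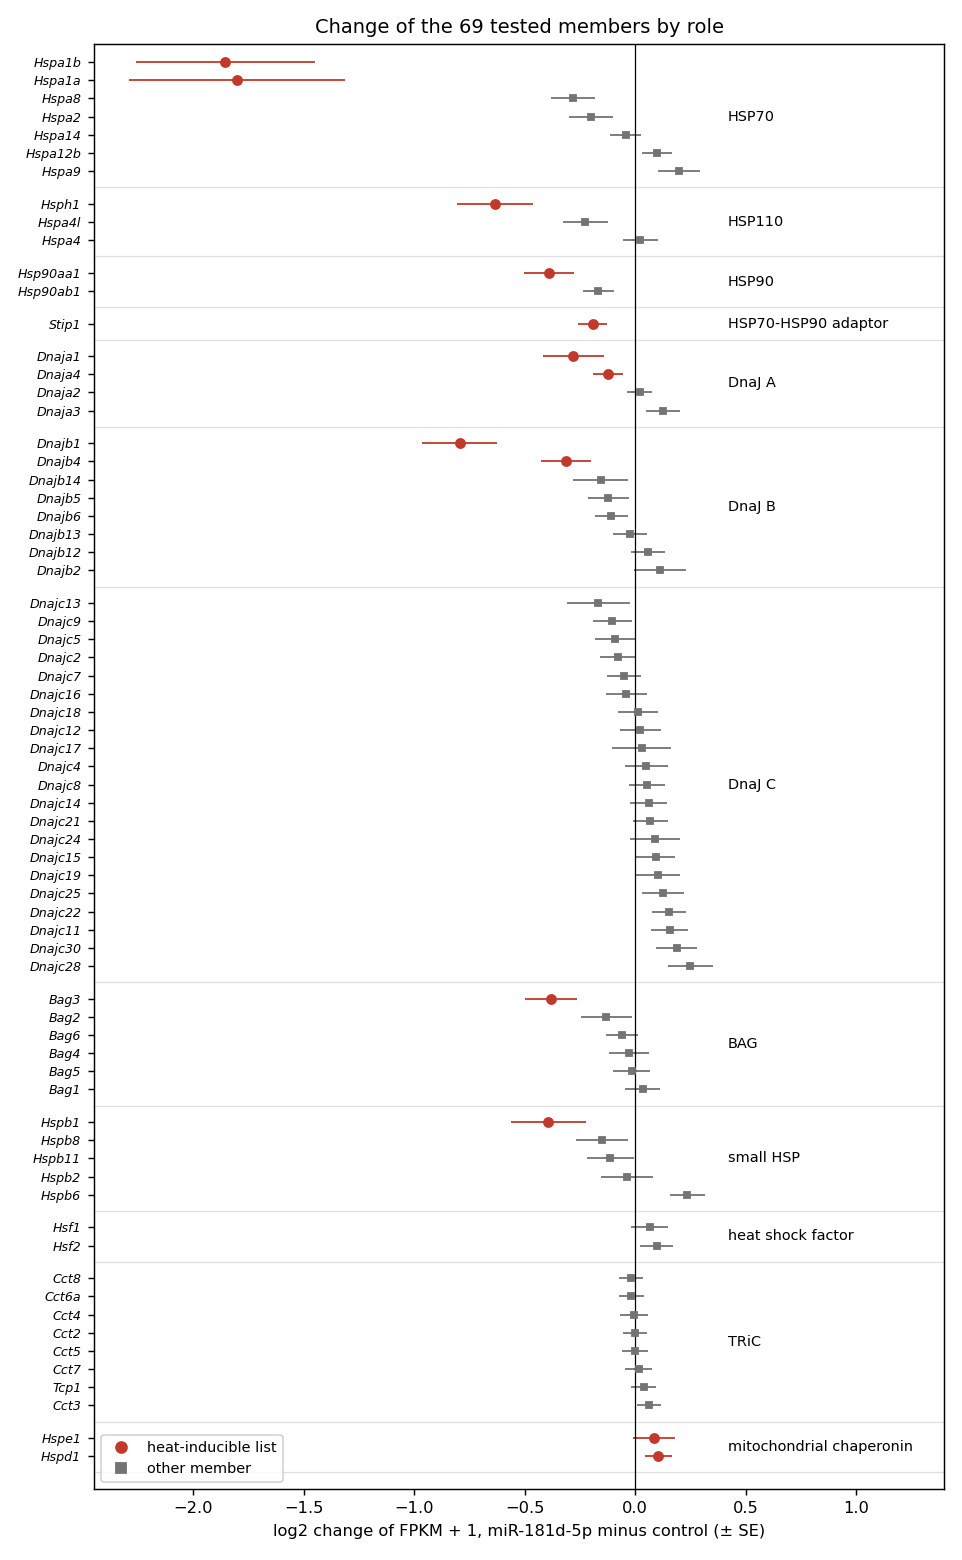
Log2 change (miR-181d-5p minus control, on log2(FPKM + 1), with SE) of the 69 tested members, grouped by role, with heat-inducible members as circles and the others as squares. The circles lie at the low end of the classes that hold them, down to -1.85 for Hspa1b, except Hspd1 and Hspe1 at 0.10 and 0.09, and the TRiC subunits sit between -0.02 and 0.06.

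The same livers were high or low across much of the heat-inducible list. Liver 5 of the miR-181d-5p group was the highest of its group in 11 of 13 heat-inducible members, against 10 of 56 other members. Control liver 3 was the highest control in 8 of 13 and control liver 1 the lowest in 7 of 13. As the median of the list relative to the control mean on the log2 scale, the miR-181d-5p livers stood at -0.46, -0.34, -0.54, -0.49 and -0.05 and the control livers at -0.19, -0.05, 0.32, 0.01 and -0.05 (livers 1 to 5 in both groups). Liver 5 of the miR-181d-5p group thus lay at the level of control livers 2 and 5. In Hspa1a, Hspa1b, Dnajb1, Dnajb4, Hsp90aa1, Hsp90ab1, Hspa8, Stip1 and Bag3 it was the 1 liver of its group inside the control range. For the TRiC subunits the same median was -0.02 to 0.05 in miR-181d-5p livers and -0.05 to 0.04 in control livers. Control liver 5, the liver with the high immediate early genes, was the highest control in Hspa1a and Hspa1b and the lowest in Hsph1, Hsp90aa1 and Bag3. Its ratio of Hspa1b to Hspa1a FPKM was 1.52, against 2.997 to 4.81 in miR-181d-5p livers and up to 4.99 in control livers.

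**Figure D3:**
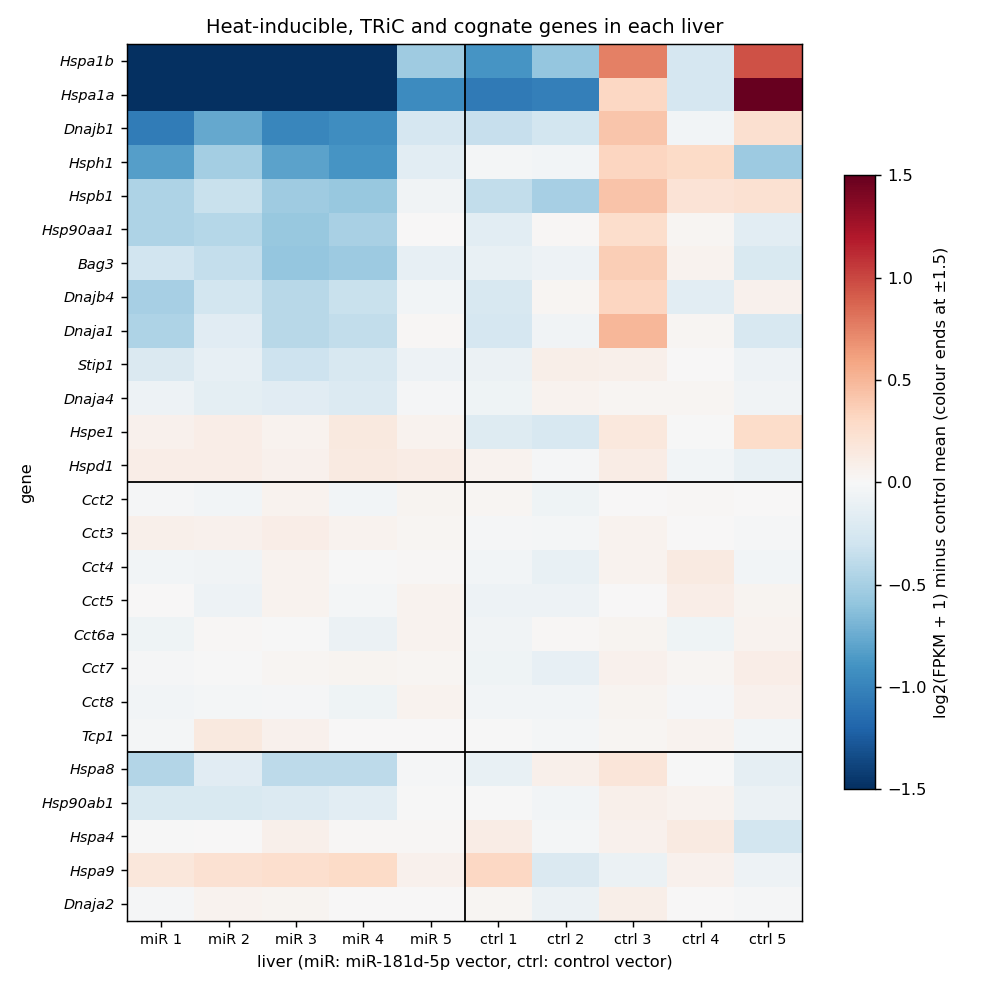
Log2(FPKM + 1) minus the control mean in each liver (columns, miR-181d-5p livers left and control livers right) for the 13 heat-inducible members, 8 TRiC subunits and 5 constitutive or mitochondrial members (rows, divided by black lines). Blue cells fill the upper left and are weaker in miR-181d-5p liver 5, which was still below the control mean in Hspa1b and Hspa1a. The median of the heat-inducible list was -0.54 to -0.34 in miR-181d-5p livers 1 to 4 and -0.05 in liver 5. The TRiC cells are pale throughout.

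Heat shock elements were searched for as GAANNTTC or TTCNNGAA in windows of 250 bases before to 50 after the start; each form is its own reverse complement, so both strands are covered. A window was found for 63 of 79 members, and none was used for the remaining 16, Hsp90aa1, Hspa8 and Hsp90ab1 among them. Some genes have more than 1 annotated start, and a gene was counted when any of its windows held a match, in all lists alike. Counted so, a match stood in 10 of 12 heat-inducible members (83.3%), 7 of 51 other members (13.7%) and 3 of 8 TRiC subunits. Dnaja1, Dnaja4, Dnajb4 and Hspd1 of the heat-inducible list, and Cct2, Cct5 and Hspb6 of the others, also have a window without a match. Of all tested genes with a window 1377 of 9659 (14.3%) held one. A longer form, GAANNTTC followed by NNGAA or TTCNNGAA followed by NNTTC, which overlaps the short ones, stood in Hsph1, Hspd1 and Hspe1 of the 12 heat-inducible members and in Dnajb6 of the other 51. It stood in 58 of the 9659 tested genes (0.6%). The windows of Hsph1 (chr5:149636266-149636565, minus strand) and Hspe1 (chr1:55087898-55088197, plus strand) are shown because both hold the long form (matches in capitals), while Hsph1 was lower and Hspe1 was not.
Hsph1: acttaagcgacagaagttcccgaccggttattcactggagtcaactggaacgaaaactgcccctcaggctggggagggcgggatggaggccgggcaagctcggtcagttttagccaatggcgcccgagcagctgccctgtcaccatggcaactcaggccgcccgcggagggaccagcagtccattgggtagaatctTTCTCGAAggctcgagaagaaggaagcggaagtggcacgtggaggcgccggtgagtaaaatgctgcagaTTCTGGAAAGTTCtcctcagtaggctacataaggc
Hspe1: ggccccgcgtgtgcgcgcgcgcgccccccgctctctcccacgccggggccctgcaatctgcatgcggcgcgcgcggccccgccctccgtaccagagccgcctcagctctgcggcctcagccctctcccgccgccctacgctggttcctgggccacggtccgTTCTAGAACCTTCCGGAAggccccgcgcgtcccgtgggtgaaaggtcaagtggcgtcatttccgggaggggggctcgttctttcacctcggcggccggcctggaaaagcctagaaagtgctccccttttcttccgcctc
Hspd1 is read in the opposite direction from the same promoter, and its window shares 285 bases with that of Hspe1. Dnajb1 and Stip1 held no match, which says only that these letters are not in the window. A match describes letters and is not a binding site.

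**Figure D4:**
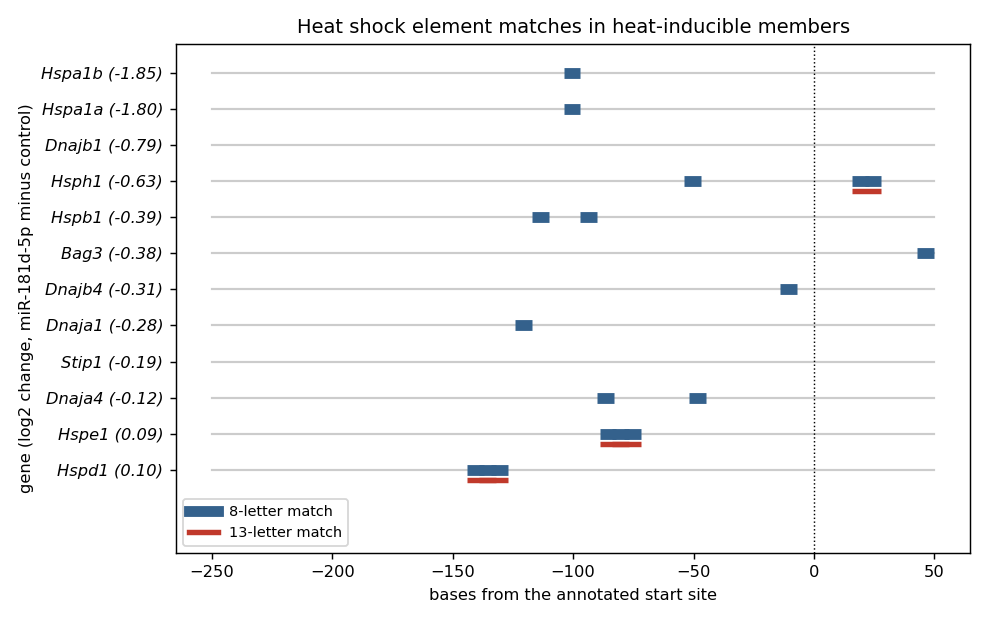
Matches to the heat shock element by distance in bases from an annotated start (x axis) in the 12 heat-inducible members with a promoter window (rows, from the lowest to the highest log2 change, given in brackets). For a gene with more than 1 start only the window with the most matches is drawn. Windows of Dnaja1, Dnaja4, Dnajb4 and Hspd1 without a match are not shown. Wide bars mark the short form and thin bars the longer form; the long form stands in Hsph1 (-0.63) and in Hspe1 (0.09) and Hspd1 (0.10), and Dnajb1 (-0.79) has no match.

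Other parts of the protein quality network were set beside the members. Of 35 tested further co-chaperones and stress genes, 4 were lower and 4 higher at an unadjusted p under 0.05 (11.4% each, against 9.63% and 5.04% of all genes tested), with a median of 0.01, so the lower share was near that of all genes. The lower ones included Fkbp5, an HSP90 co-chaperone and glucocorticoid target, at 16.0 ± 3.09 FPKM in miR-181d-5p livers against 22.5 ± 3.16 in control livers (-0.48, adjusted p = 0.222), and Zfand2a, a heat- and arsenite-induced proteasome adaptor, at 10.8 ± 1.41 FPKM in miR-181d-5p livers against 13.7 ± 1.49 in control livers (-0.32, adjusted p = 0.24). The higher ones included Stub1, the ubiquitin ligase that works with HSP70, at 61.9 ± 3.24 FPKM in miR-181d-5p livers against 53.4 ± 4.43 in control livers (0.21, adjusted p = 0.250), and Hsf4. Hsf4, a heat shock factor best known from the lens, stood at 3.55, 3.36, 3.27, 3.29 and 3.31 FPKM in miR-181d-5p livers 1 to 5, against 2.73, 2.62, 2.72, 2.11 and 2.72 FPKM in control livers 1 to 5, without overlap (0.28, SE 0.07, adjusted p = 0.221). Mitochondrial chaperones and proteases outside the members held 4 of 9 genes higher at an unadjusted p under 0.05 (44.4%, against 5.04% of all genes tested) and 0 lower, with a median of 0.18. None passed the adjusted test. The 4 were Clpp at 36.4 ± 2.38 FPKM in miR-181d-5p livers against 30.9 ± 3.05 in control livers, Trap1, the HSP90 of mitochondria, at 81.7 ± 3.62 FPKM in miR-181d-5p livers against 73.7 ± 3.11 in control livers, Grpel1, the exchange factor of Hspa9, at 47.9 ± 2.66 FPKM in miR-181d-5p livers against 41.6 ± 4.92 in control livers, and Clpb at 7.49 ± 0.313 FPKM in miR-181d-5p livers against 6.51 ± 0.766 in control livers. Prefoldin (6 genes, median 0.06), ER chaperones (17 genes, median 0.07) and proteasome subunits (31 genes, median 0.06) held 0 genes with an unadjusted p under 0.05.

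Genes known to respond to cold, to acute stimuli and to the time of day were also read. The cold-inducible gene Cirbp stood at 8.27 ± 1.25 FPKM in miR-181d-5p livers against 7.54 ± 2.08 in control livers (0.14, adjusted p = 0.672) and Rbm3 at 22.3 ± 1.64 FPKM in miR-181d-5p livers against 27.1 ± 6.23 in control livers (-0.25, adjusted p = 0.405). Of 20 immediate early genes 19 were below 0 with a median of -0.37, and 4 (20%, against 9.63% of all genes tested) were lower at an unadjusted p under 0.05, Klf6, Klf4, Klf2 and Nr4a3, with log2 changes of -0.38, -0.36, -0.40 and -0.58. Their median per liver ran from -0.51 to -0.28 in miR-181d-5p livers and from -0.51 to 1.32 in control livers, the 1.32 being control liver 5, and miR-181d-5p liver 5 stood at -0.48. Control livers 1 to 4 stood at -0.36, -0.51, -0.02 and -0.29, a range that holds all miR-181d-5p livers. The control mean behind these values includes control liver 5. Of 15 clock genes tested 14 were below 0 with a median of -0.09, and 3 (20%, against the same 9.63%) were lower by that test, Per1, Bhlhe40 (-0.46) and Ciart (-0.64). Per1, a clock gene that glucocorticoids also induce, stood at 2.41, 3.23, 3.24, 3.26 and 5.42 FPKM in miR-181d-5p livers 1 to 5, against 8.28, 7.86, 6.11, 5.67 and 5.94 FPKM in control livers 1 to 5. The groups did not overlap, and liver 5 was again the highest of the miR-181d-5p group (-0.80, SE 0.15, adjusted p = 0.190, or 0.0232 without both livers 5). The part of clock and immediate early genes in the difference of the heat-inducible members was not tested.

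Matches to the miR-181 seed were searched in the longest 3' UTR of each gene (GENCODE vM21, GRCm38), as TGAATGTA (8mer), TGAATGT (7mer-m8) or GAATGTA (7mer-A1), where the 7-letter forms overlap the 8mer and each site was named by its longest form. Of 68 tested members with a 3' UTR 12 held a match (17.6%), against 2702 of 11770 of all tested genes (23.0%). The median 3' UTR was 825 bases long in members and 1114 in all tested genes, and the shares were not adjusted for length. An 8mer stood in 4 members (5.88%) and in 698 of all tested genes (5.93%). Of the 13 heat-inducible members 2 held a match, and they did not include Hspa1a, Hspa1b, Dnajb1 or Hsph1. Those 2 sites and 1 of the 4 in Hspa4l are shown, since Hspa4l alone held a match among the 12 lower members; each has 10 bases on either side and the match in capitals.
Dnaja4: tagtacatgaTGAATGTAaacttggcac
Dnaja1: tatgcagtagTGAATGTgggaaggact
Hspa4l: cttatacattTGAATGTgatggtgacc
The site in Dnaja4 is an 8mer (chr9:54714718-54714725, plus strand), and those in Dnaja1 (chr4:40732983-40732989, plus strand) and Hspa4l (chr3:40792505-40792511, plus strand) are 7mer-m8 matches, all within the annotated 3' UTR. Members with a match had a median log2 change of -0.11 and those without 0.01, against -0.05 and -0.01 over all tested genes. Among heat-inducible members the order was reversed, at -0.20 for the 2 with a match and -0.39 for those without. Among the other members tested the medians were -0.07 and 0.02. Whether livers use these 3' UTRs was not tested.

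The 10 members below the filter were Cct6b, Dnajb3, Dnajb7, Dnajc27, Dnajc5b, Dnajc6, Hspa12a, Hspa1l, Hspb7 and Hspb9, with means of 0.00415 to 0.390 FPKM. Cct6b and Hspa1l are forms best known from testis, and Hspb7 from heart. The nearest above the filter were Dnajb13 at 0.542 and Hspa12b at 0.578 FPKM. By mean FPKM over the 10 livers the members ran from Hspa8 at 824 and Hsp90ab1 at 578 through Hspa9 at 243, Hspd1 at 201 and Hspe1 at 198 to Hspb8 at 111 and Hsp90aa1 at 95.1. The lowest total of a tested member over all livers was 185 reads, and the median over tested genes was 497 reads per liver.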

How the data were processed

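RNA of 10 livers was extracted with the mirVana kit and made into TruSeq Stranded mRNA libraries, per the labels' protocols. The authors deposited FPKM per gene symbol, 1 column per liver. Per the submitters' processing notes they used mm10, HISAT2 2.2.1 and HTSeq 0.13.5, besides DESeq2 1.18.1, R 3.4.1, Trimmomatic 0.38 and FastQC 0.11.9; the roles of these tools, the FPKM formula and the use of strand in counting are not given in the sources used here. A gene and an overlapping antisense gene may therefore share reads. Whole reads could be recovered from the FPKM for 17216 of 17217 genes with reads (99.994%, within 0.02 of a read); 57 further genes were at 0 throughout.

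The main test was limma 3.58.1 in R 4.3.3 on log2(FPKM + 1) with a mean of at least 0.5 FPKM over all livers, group as the only term, eBayes with a trend, two-sided, and Benjamini-Hochberg adjustment over 12053 genes at 0.05. Single genes also had exact permutation tests over 252 labellings. Voom ran on the recovered reads as an alternative, and other alternatives changed pseudocount, filter, scaling, fit and livers. The script was tested on simulated data. No 2 livers of a group agreed within counting noise (lowest chi-square per degree of freedom 8.79), and the labels give no batch.

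The members and lists were chosen with earlier results of these data known. The genes named are the heat-inducible list, Hspa8, Hsp90ab1, Hsf1, Hsf2, members with an unadjusted p under 0.05, the most abundant of each role, up to 4 genes of each other list by p, and Cirbp and Rbm3; further members are named after their values were seen. Promoter windows are from RefSeq. Tables and figures used pandas 2.3.3, numpy 2.4.6 and matplotlib 3.10.9 in Python 3.11.15.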

Additional observations from a re-analysis of the deposited data

Results flagged for a closer look

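Single livers far from the rest of their group, by Dixon's test at the 95% level, were found in 5 of 52 checks over 26 named members (chance gives about 1 in 20, or 2.6). Liver 5 of the miR-181d-5p group was the highest in 3 of them. It held 107 FPKM of Hsp90aa1, against 71.8 to 79.6 FPKM in the other 4 livers of its group. It held 5.33 FPKM of Hspa1a, against 1.83 to 2.51 FPKM, and 25.6 FPKM of Hspa1b, against 5.47 to 9.75 FPKM. Control liver 5 held 48.6 FPKM of Hspa1a, against 4.84 to 14.2 FPKM in the other 4 controls. It was the lowest control for Hspa4l, at 6.12 FPKM against 8.88 to 9.44 FPKM.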

How the results depend on the processing

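Of the 5 results on all members, the count lower at an unadjusted p under 0.05 (12) was 11 to 16 over 14 alternatives and 9 to 14 with single livers left out, and the median of other members (0.01) was -0.01 to 0.02, or -0.01 to 0.03 with single livers left out. The median of the heat-inducible members (-0.38) was -0.45 to -0.29 with single livers left out and -0.71 in the narrow list. The count of members with an adjusted p under 0.05 was 0 to 0 with single livers left out and 2 without both livers 5; the cause was not tested. The 2 higher members became 1 with a common sum or a replicate block, and 4 without both livers 5 or with a gene length trend removed, both settings chosen after seeing the data. With single livers left out they were 1 to 5: 5 when control liver 1 was dropped, 4 when miR-181d-5p liver 5 was, and 1 when any of control livers 2 and 5 or miR-181d-5p livers 2 and 3 was; the cause was not tested. Members near 0 changed sign. Bag1 turned to -0.0074 after quantile normalization, -0.0109 with the length trend removed and -0.0231 without control liver 1 (-0.0231 to 0.0904 with single livers left out). Hspa4 turned to -0.0039 with a common sum, -0.0038 after quantile normalization, -0.0235 with array weights, -0.0426 without both livers 5 and -0.0449 without control liver 5 (-0.0449 to 0.0569 with single livers left out). Cct5 turned positive in 5 settings with 1 liver left out, at 0.0009 to 0.0261 (-0.0203 to 0.0261 over all 10). Dnaja2 turned to -0.0073 with a common sum and -0.0115 after quantile normalization, and Hspb2 to 0.0195 after quantile normalization; they changed sign in 3 and 4 alternatives. Of the 39 members recomputed under the alternatives, the other 34 kept their sign in each one that tests them. Adjusted p ran from 0.0493 to 0.502 for Hspa1b, 0.0232 to 0.502 for Hsph1, 0.068 to 0.502 for Dnajb1 and 0.0717 to 0.502 for Hspa1a.

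The labels do not say whether same-numbered livers were paired. Their deviations from the group means correlated at -0.283 to 0.015, and no liver correlated best with its own number, which cannot show that the design was unpaired. With the number as a replicate block, 11 members were lower, 1 was higher and 0 passed, with medians of -0.38 and 0.01. Low members such as Hspa1a depended on the pseudocount.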
